A study of Homo sapiens with 6 samples.

Results

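The genes described here are those of the NF-kB and innate signalling cascade: the NF-kB subunits, their inhibitors, the IKK and IRAK kinases, the TRAF adaptors, the ubiquitin enzymes that switch the cascade on and off, and the TBK1-IRF branch. They were chosen by a list of 47 symbols, and 45 of them were matched to a row of the deposited table of 39771 genes. IKBKG and IKBKE were not matched and were not analysed here. The cells were MOLM-13, a human acute myeloid leukaemia line that carries the MLL-AF9 translocation, grown as a cell line in culture. Those transduced with a lentiviral non-targeting hairpin (shNT, 2 libraries) were compared with those transduced with a hairpin against LAMP5 (shLAMP5, 4 libraries), all after puromycin selection. The labels used here tie no library to a hairpin sequence or a harvest time. They also do not say that replicate libraries are separate cultures, and the p-values then rest on library-to-library variation that may be technical only. The title of the series names inflammatory signalling, and the comparison addresses whether transcripts of its cascade differ when LAMP5, which encodes a lysosome-associated membrane protein, is knocked down.

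NF-kB dimers are held in the cytoplasm by IkB proteins. Toll-like, interleukin-1 and tumour necrosis factor receptors signal through IRAK kinases, RIPK1 and TRAF adaptors, on which ubiquitin chains are built that recruit the TAK1 kinase (MAP3K7) and the IKK complex. IKK then marks IkB for degradation and the dimers enter the nucleus. A slower, non-canonical route uses the kinase NIK (MAP3K14) and IKK alpha (CHUK) to process the NFKB2 product, which pairs with RELB. Several genes of the cascade, among them NFKBIA, TNFAIP3, NFKB2, RELB and BCL3, are themselves known NF-kB targets, and their transcripts are often read as a gauge of pathway activity. Transcript levels do not show phosphorylation, ubiquitination or protein turnover, through which most of the cascade acts.

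Because the cascade is known to feed back on its own genes, the promoters of the members were searched for the kB consensus, the 10-base element that NF-kB dimers bind. Windows from 250 bases before to 50 bases after each start were taken from RefSeq (GRCh38.p14) and searched on both strands, and overlapping matches were joined. Of the 45 members, 39 had a window, and RELB, NFKBIE, IKBKB, RIPK2, SHARPIN and IRF3 had none. A match was present in at least 1 window of 14 of the 39 (35.9%), against 7.09% of all 27305 genes with a window and 8.87% of the 9287 of these that were tested. Counted by window, 17 of 59 member windows held a match (28.8%), against 5.91% of all 35116. The list of members includes known NF-kB targets, so a share above that of all genes may follow from how it was chosen. A match is a description of the letters and does not show that the site is bound in these cells. The stretches below let sites of subunits, inhibitors and ubiquitin regulators be compared. Each runs in the direction of its gene, with the matched bases in capitals. Only 1 stretch is given per gene, and NFKB2, NFKBIZ, CYLD and BIRC3 had further matches that are not shown.
NFKB1, chr4:102501301-102501328 (+): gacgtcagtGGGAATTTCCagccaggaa
NFKB2, chr10:102394491-102394518 (+): ggccgagaaGGGGCTTTCCcggccctga
REL, chr2:60881518-60881546 (+): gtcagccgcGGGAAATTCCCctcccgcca
NFKBIA, chr14:35404812-35404839 (-): gactggcttGGAAATTCCCcgagcctga
NFKBIB, chr19:38899932-38899960 (+): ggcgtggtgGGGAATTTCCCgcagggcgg
NFKBIZ, chr3:101827758-101827785 (+): ttttggtctGGGAATTTCCagtgtgcag
TNIP1, chr5:151081058-151081085 (-): cagtctccgGGGACTTTCCcaggggtgg
CYLD, chr16:50741888-50741915 (+): tgacagagcGGAAAGTCCCttcggccgg
BIRC3, chr11:102317340-102317367 (+): attaccgctGGAGTTCCCCtaagtccta

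The 250 bases before the start are shown whole for the feedback inhibitors NFKBIA and TNFAIP3, whose levels are given in every library further on. NFKBIA held 1 match that began 81 bases before its start, and TNFAIP3 held 2 that began 67 and 55 bases before its start.
NFKBIA, chr14:35404750-35404999 (-): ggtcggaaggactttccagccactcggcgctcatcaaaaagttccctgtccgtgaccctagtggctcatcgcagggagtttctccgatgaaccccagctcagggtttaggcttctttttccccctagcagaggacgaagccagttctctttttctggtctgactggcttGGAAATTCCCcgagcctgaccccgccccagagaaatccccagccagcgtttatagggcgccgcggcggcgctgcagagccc
TNFAIP3, chr6:137867009-137867258 (+): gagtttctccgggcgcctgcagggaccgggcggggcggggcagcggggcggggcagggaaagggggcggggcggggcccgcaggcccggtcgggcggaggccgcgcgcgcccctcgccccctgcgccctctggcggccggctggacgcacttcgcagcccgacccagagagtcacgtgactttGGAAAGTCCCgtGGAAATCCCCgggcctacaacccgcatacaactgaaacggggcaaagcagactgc

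The values were read as TPM, a unit that they do not carry themselves. TPM is transcript abundance per length scaled to a fixed total in each library, so that levels can be compared between genes. The deposited rows summed to 897026 to 912565 per library. Read depth is unknown, and 12192 to 12661 genes reached 1 TPM per library. LAMP5, the target, measured 170 and 282 TPM in shNT 1 and 2 and 65.6 to 86.7 TPM in the shLAMP5 libraries, all 4 below both controls (log2 fold change -1.54, SE 0.25, limma adjusted p 0.252). An exact two-sided permutation test of 2 against 4 libraries gave it p = 0.0667, the smallest this design allows. Myeloid genes such as FLT3, CD33 and SPI1 were present in every library, while 1 of 6 matched T cell, 1 of 6 B cell, 0 of 6 erythroid and 0 of 5 megakaryocytic markers reached 1 TPM in 2 libraries. Of 7 fibroblast and packaging cell markers 2 did, KRT18 (16.8 to 23.6 TPM) and COL1A1 (0.696 to 5.91 TPM), and COL3A1 was listed at 0 throughout. Library shLAMP5 2 stood apart: its median scaling factor was 0.839, against 0.998 to 1.06 in the others, and it was the lowest of the 6 for 44.1% of all genes tested.

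All 7 layers of the cascade were represented in the RNA of these cells. Of the 45 members, 33 averaged at least 10 TPM over the 6 libraries, 6 averaged at least 40 TPM and 3 averaged under 1 TPM. The most abundant were SHARPIN (76.6 TPM on average), IKBKB (69.9), TNIP1 (58.7), RBCK1 (51.6), TNFAIP2 (48.5) and RELA (44.3). At the other end were BIRC3 (0.280), MAP3K14 (0.519) and TRAF1 (0.741). These 3 did not reach 1 TPM in at least 2 libraries, the filter for testing, which left 42 members in the test.

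**Figure D1:**
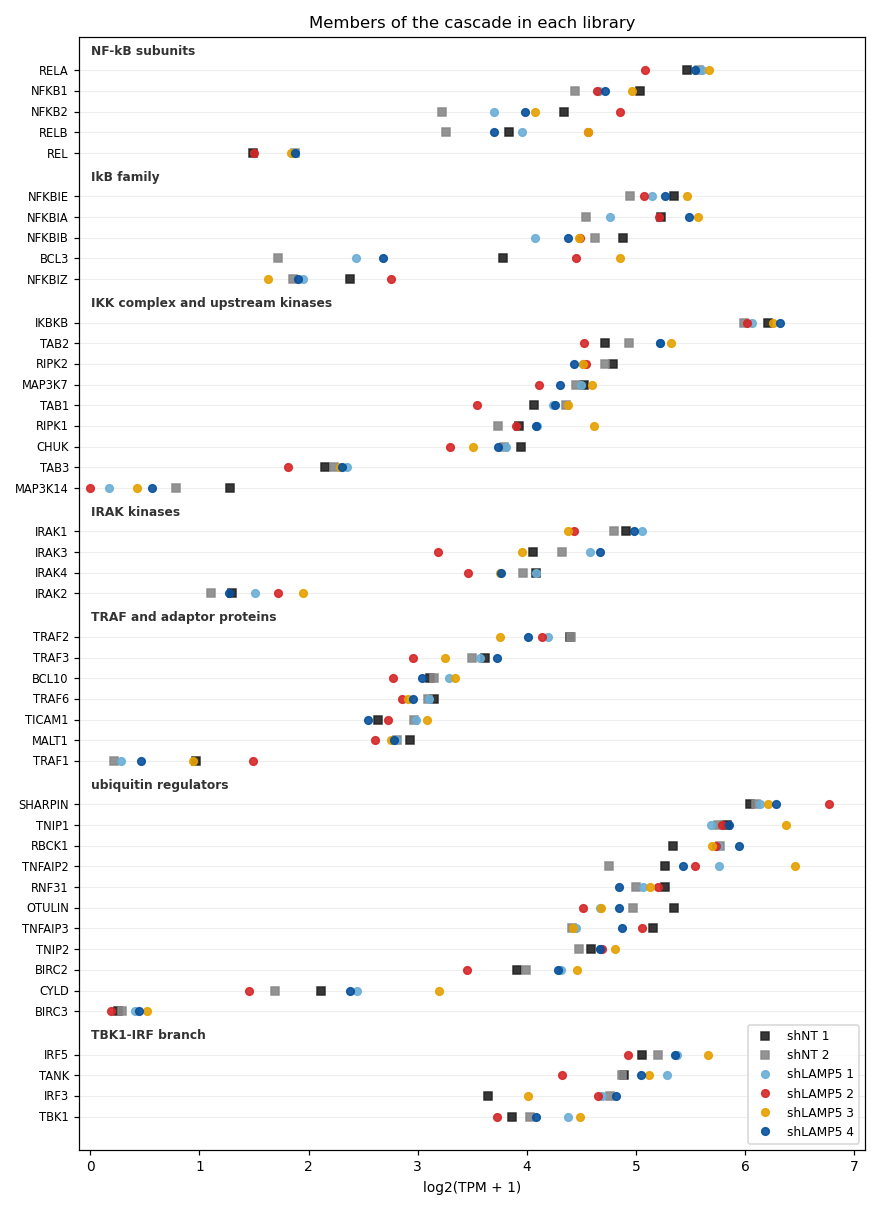
Level of each of the 45 matched members in each of the 6 libraries, on the log2(TPM + 1) scale, grouped by role and ordered by mean level. Squares are the 2 shNT libraries and circles the 4 shLAMP5 libraries. Most genes hold their place along the axis in every library, while BCL3 spreads from 2.29 to 27.8 TPM.

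None of the 42 tested members passed the test for a difference between shLAMP5 and shNT, which used limma on log2(TPM + 1) over 13072 genes with Benjamini-Hochberg adjustment at 0.05. The smallest adjusted p of a member was 0.541, and none of all genes tested passed (0%). At an unadjusted p under 0.05 there was 1 member higher (TNFAIP2; 3.72% of all genes tested) and 1 lower (OTULIN; 5.25% of all genes), 2 of 42 against 8.97% in either direction. The log2 fold changes ran from -0.48 to 0.85, with a median of 0.047 beside -0.006 over all genes, and 23 were positive and 19 negative. Of the 42, 39 lay within 0.5 of no change on this scale, as did 82.1% of all genes. The 95% intervals had a median half-width of 0.54, so for a typical member a change of that size in either direction cannot be told from none. These intervals are for single genes, and passing after adjustment over all genes takes a larger change. LAMP5 itself, at -1.54, did not pass. In data simulated for 2 against 4 libraries, 29% of genes changed 2-fold passed, and 75% of genes changed 4-fold.

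The groups did not overlap for 8 of the 42 tested members, with shLAMP5 higher in 3 (8.25% of all genes) and lower in 5 (13.5%). These were 19.0% of the members, against 21.8% of all genes tested, so that the share was near the background. The 3 higher members were TNFAIP2, SHARPIN and TNIP2. The 5 lower ones were OTULIN, NFKBIB, TRAF2, RIPK2 and MALT1. MAP3K14, too low to be tested, was also lower without overlap.

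**Figure D2:**
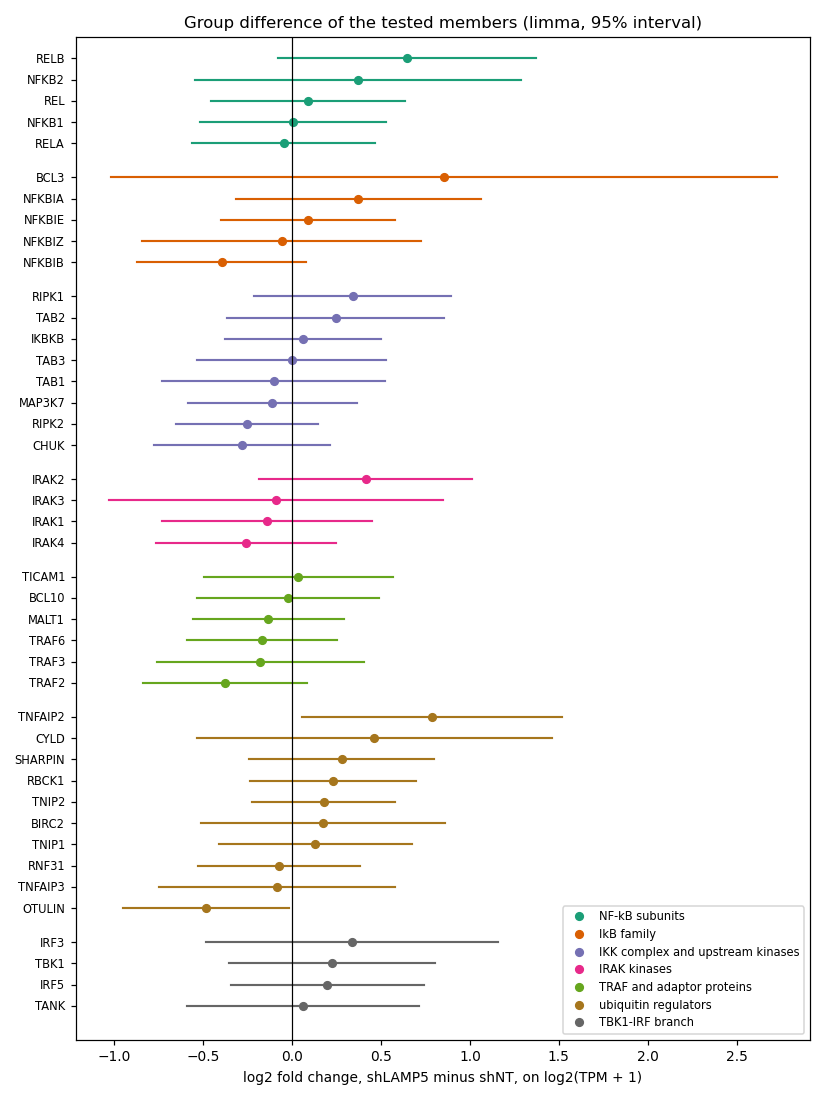
Log2 fold change of the 42 tested members, taken as shLAMP5 less shNT from log2(TPM + 1) values, by role, with the 95% interval from limma. The interval of 40 members holds 0, while those of TNFAIP2 and OTULIN do not, before adjustment over all genes. TNFAIP2 is drawn with the ubiquitin regulators only because it was listed there.

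Among the subunits, RELA, the main activating partner of canonical dimers, was the most abundant, and REL, the lymphoid partner, the least, with a RELA to REL ratio of 17.1 to 23.9 over the libraries. RELA measured 43.3 and 46.7 TPM in shNT 1 and 2, and 47.6, 32.8, 49.9 and 45.7 TPM in shLAMP5 1 to 4. The controls lay inside the shLAMP5 range, with shLAMP5 2 well below them and shLAMP5 1 and 3 just above, and the log2 fold change was -0.05 (95% interval -0.56 to 0.46, SE 0.22, limma adjusted p 0.967). NFKB1, which encodes the p105 precursor of p50, measured 31.8 and 20.8 TPM in shNT and 24.3, 24.0, 30.1 and 25.4 TPM in shLAMP5. All 4 shLAMP5 values lay between the 2 controls, and the log2 fold change was 0.01 (interval -0.52 to 0.53, SE 0.23). REL had a log2 fold change of 0.09, and its 6 values ran from 1.81 to 2.67 TPM.

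The partners of the non-canonical dimer spread more. RELB measured 13.3 and 8.56 TPM in shNT 1 and 2, and 14.6, 22.6, 22.6 and 12.0 TPM in shLAMP5 1 to 4. The groups overlapped only through shLAMP5 4, and the log2 fold change was 0.65 (interval -0.08 to 1.37, SE 0.31, limma adjusted p 0.589). It was 0.36 without shNT 2 and 0.33 with library weights, which were highest for shLAMP5 4 (3.41) and lowest for shLAMP5 2 (0.193). NFKB2, its usual partner, measured 19.3 and 8.33 TPM in shNT, and 12.0, 27.9, 15.8 and 14.8 TPM in shLAMP5. Here 3 of the 4 shLAMP5 libraries fell between the controls and shLAMP5 2 lay above them, with a log2 fold change of 0.37 (SE 0.40, limma adjusted p 0.814). Without shNT 2 the NFKB2 value was -0.19, and without shNT 1 it was 0.93, so 1 control library set its sign. MAP3K14, the kinase that drives NFKB2 processing, measured 1.43 and 0.725 TPM in shNT and 0.127, 0.348 and 0.482 TPM in shLAMP5 1, 3 and 4, and it was listed at 0 in shLAMP5 2. All 4 shLAMP5 libraries lay below both controls, at levels too low for the main test. With no filter on low genes its log2 fold change was -0.74 (limma unadjusted p 0.0151, adjusted p 0.714).

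The IkB family holds the inhibitors and 2 nuclear relatives, BCL3 and NFKBIZ, which modulate transcription on DNA. NFKBIA, the feedback inhibitor IkB alpha, measured 36.4 and 22.3 TPM in shNT 1 and 2, and 26.1, 35.9, 46.6 and 43.9 TPM in shLAMP5 1 to 4. Of the 4, shLAMP5 3 and 4 lay above both controls and the other two between them. The log2 fold change was 0.37 (interval -0.32 to 1.06, SE 0.30, limma adjusted p 0.737), and it was 0.031 without shNT 2 and 0.71 without shNT 1. NFKBIB, the inhibitor IkB beta, measured 28.5 and 23.6 TPM in shNT, and 15.8, 21.4, 21.3 and 19.8 TPM in shLAMP5. Every shLAMP5 library lay below both controls, and the log2 fold change was -0.40 (interval -0.87 to 0.08, SE 0.21, limma adjusted p 0.603). The ratio of NFKBIA to NFKBIB, computed after the values were seen, was 1.28 and 0.945 in shNT and 1.65, 1.67, 2.19 and 2.21 in shLAMP5. It was 1 of 3 among 20 such ratios without overlap, and NFKBIB alone already separates the groups. NFKBIE, the inhibitor IkB epsilon, was of like abundance (29.8 to 43.1 TPM) with a log2 fold change of 0.09, and NFKBIZ was scarce (2.10 to 5.75 TPM) with -0.06.

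BCL3, singled out after its values were seen, varied most of all tested members. It measured 12.8 and 2.29 TPM in shNT 1 and 2, and 4.40, 20.9, 27.8 and 5.40 TPM in shLAMP5 1 to 4. The highest library held 12.2 times the lowest, and the controls alone differed 5.57-fold. Its SD within groups, 1.29 on the log2(TPM + 1) scale, exceeded that of 99.2% of all genes tested. Its log2 fold change of 0.85 had an interval of -1.02 to 2.73, and was -0.18 without shNT 2 and 1.89 without shNT 1, so 1 control library set its sign. TRAF1, another known NF-kB target, showed the same order of controls at very low level, with 0.959 and 0.160 TPM in shNT and 0.215, 1.81, 0.925 and 0.381 TPM in shLAMP5. In both genes shNT 1, shLAMP5 2 and shLAMP5 3 were the 3 highest libraries. The same libraries were highest for NFKB2 and, outside the members, for IFIT1, IFIT3 and ISG15. They were the 3 lowest for IRF3, while RELA and TNFAIP3 did not share this order. The share of all genes with this order was not counted. Across all genes tested, shNT 1 and shLAMP5 2 also deviated together from their group means. What set these libraries apart was not tested.

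**Figure D3:**
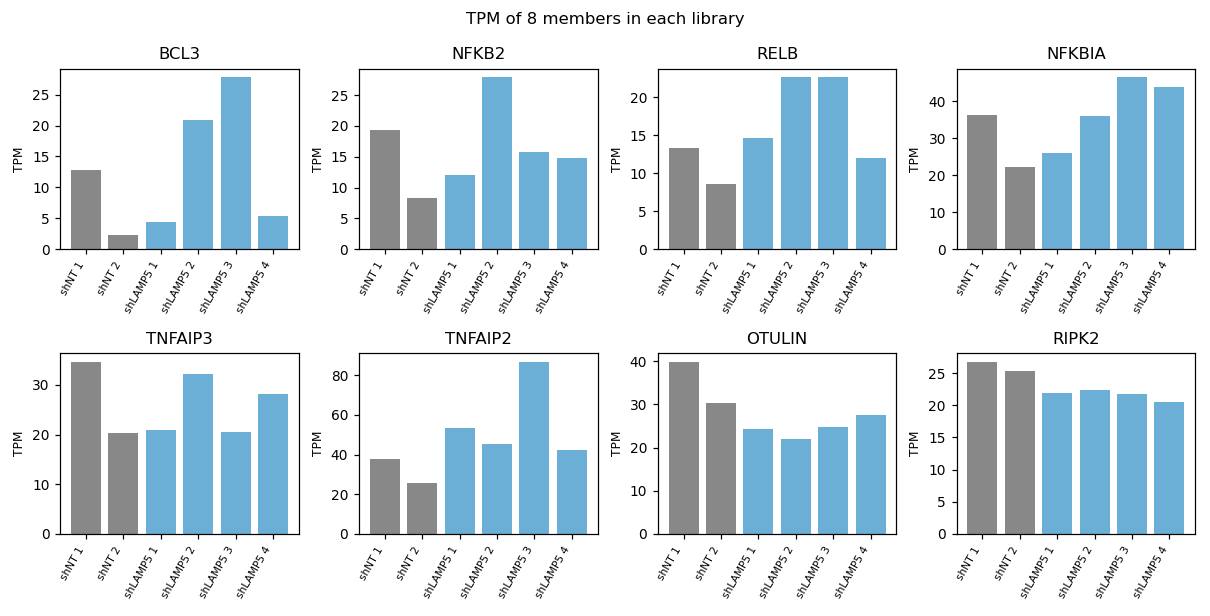
TPM of 8 members in each library, as bars from 0, with shNT in grey and shLAMP5 in blue. BCL3 and NFKB2 differ more between the grey bars than between the groups, while RIPK2 stays between 20.5 and 26.7 TPM.

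For most subunits and IkB genes, the 2 control libraries differed from each other by more than the groups did. The median absolute gap between shNT 1 and shNT 2 was 0.58 for the 5 subunits and 0.53 for the 5 IkB genes on the log2(TPM + 1) scale, against 0.22 over all genes tested. The gap exceeded the absolute log2 fold change for 4 of 5 subunits and 4 of 5 IkB genes, and for 18 of all 42 members (42.9%), against 49.7% of all genes tested, so that over the members as a whole the share was not above the background. It was 2.06 for BCL3, 1.12 for NFKB2, 0.74 for TNFAIP3, 0.68 for NFKBIA, 0.59 for NFKB1 and 0.58 for RELB, each higher in shNT 1. All 5 IkB genes were higher in shNT 1 than in shNT 2. NF-kB target genes outside the members had a median gap of 0.49 in the same direction and interferon-stimulated and IRF genes one of 1.07, while over all genes it was -0.05. RELA had a gap of -0.11, and IRF3 the opposite one of -1.13. What set the control libraries apart was not tested.

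**Figure D4:**
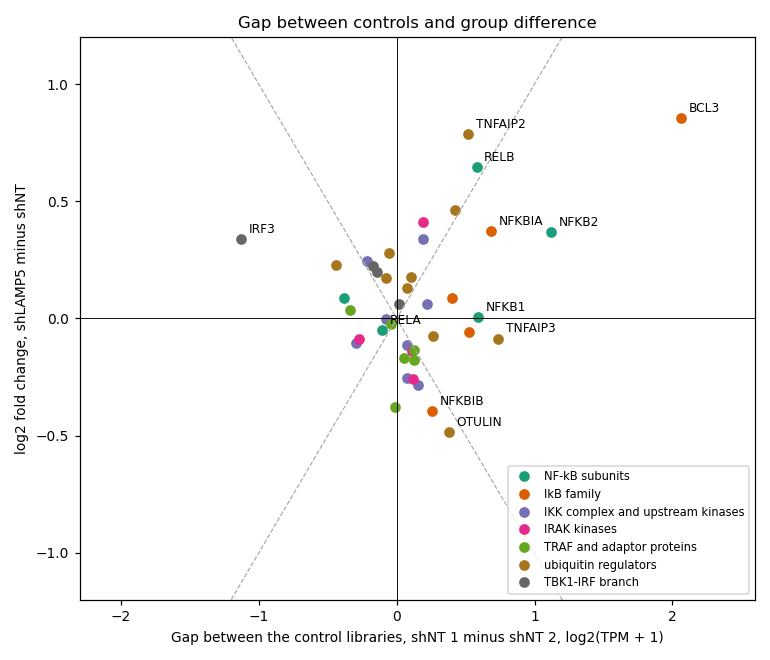
Log2 fold change of each tested member (vertical) against the gap between the 2 control libraries (horizontal), both on the log2(TPM + 1) scale and coloured by role. Points between the dashed lines and the horizontal axis, such as BCL3, NFKB2, NFKBIA and TNFAIP3, have a control gap larger than the group difference.

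Kinases of the IKK complex and its activators were mostly even across libraries. IKBKB, the catalytic IKK beta of the canonical route, measured 73.0 and 62.7 TPM in shNT 1 and 2, and 65.7, 63.6, 75.2 and 79.0 TPM in shLAMP5 1 to 4. The groups overlapped, and the log2 fold change was 0.06 (interval -0.38 to 0.50, SE 0.19, limma adjusted p 0.950). CHUK, which encodes IKK alpha, was the scarcer catalytic subunit, with an IKBKB to CHUK ratio of 4.88 to 7.26. Its values were 14.4 and 12.8 TPM in shNT, and 13.0, 8.81, 10.4 and 12.3 TPM in shLAMP5, with a log2 fold change of -0.28 (SE 0.21).

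RIPK2, the kinase of the NOD receptors, was the most even of all tested members within groups, with an SD of 0.051. It measured 26.7 and 25.3 TPM in shNT 1 and 2, and 21.9, 22.4, 21.8 and 20.5 TPM in shLAMP5 1 to 4. The groups did not overlap, and the log2 fold change was small at -0.25 (interval -0.65 to 0.14, SE 0.17, limma adjusted p 0.684). RIPK1, the kinase of tumour necrosis factor receptor signalling, measured 14.3 and 12.3 TPM in shNT, and 16.1, 13.9, 23.6 and 16.0 TPM in shLAMP5. Of these only shLAMP5 2 fell within the controls, and the log2 fold change was 0.34 (SE 0.24, limma adjusted p 0.694). MAP3K7, the kinase TAK1, and its partners TAB1, TAB2 and TAB3, which bind ubiquitin chains or activate it, had log2 fold changes between -0.11 and 0.24. All 4 were lowest in shLAMP5 2, and TAB2 had 0.43 without that library (limma unadjusted p 0.0239, adjusted p 0.233).

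IRAK kinases relay Toll-like and interleukin-1 receptor signals through MYD88. IRAK4, the first kinase of that complex, measured 15.9 and 14.6 TPM in shNT 1 and 2, and 16.0, 10.0, 12.4 and 12.6 TPM in shLAMP5 1 to 4. The groups overlapped only through shLAMP5 1, and the log2 fold change was -0.26 (interval -0.76 to 0.25, SE 0.22, limma adjusted p 0.757). IRAK2, a scarce member that sustains the signal, measured 1.45 and 1.15 TPM in shNT, and 1.84, 2.29, 2.85 and 1.42 TPM in shLAMP5. Its log2 fold change was 0.41 (SE 0.26, limma adjusted p 0.666), and shLAMP5 4 lay within the controls. The ratio of IRAK1 to IRAK2 ran from 6.95 in shLAMP5 3 and 8.99 in shLAMP5 2 to 23.4 in shNT 2. IRAK3, the inhibitory member found in monocytes, ran from 8.11 TPM in shLAMP5 2 to 24.5 in shLAMP5 4, with a log2 fold change of -0.09 that was 0.35 with library weights and 0.21 without shLAMP5 2.

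TRAF adaptors were the layer with the most negative median, -0.15 over 6 tested genes, of which 5 were negative and none passed. TRAF2, the adaptor of tumour necrosis factor receptors, measured 20.1 and 20.2 TPM in shNT 1 and 2, and 17.3, 16.7, 12.5 and 15.1 TPM in shLAMP5 1 to 4. Every shLAMP5 library lay below both controls, and the log2 fold change was -0.38 (interval -0.84 to 0.08, SE 0.20, limma adjusted p 0.606). TRAF6, the ubiquitin ligase downstream of the IRAKs, measured 7.89 and 7.55 TPM in shNT, and 7.58, 6.22, 6.52 and 6.77 TPM in shLAMP5. Its groups overlapped by shLAMP5 1 alone, with a log2 fold change of -0.17 (interval -0.59 to 0.25, SE 0.18). TRAF3, which restrains NIK, had -0.18 (SE 0.25, limma adjusted p 0.866). BCL10 and MALT1, partners in the CARD-receptor complex, had -0.02 and -0.13, and TICAM1, the adaptor TRIF of TLR3 and TLR4, had 0.03.

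Enzymes and partners of linear ubiquitin chains were abundant. LUBAC, the complex that builds those chains, is made of RNF31, RBCK1 and SHARPIN, which averaged 33.1, 51.6 and 76.6 TPM. OTULIN, the enzyme that takes linear chains apart, measured 39.8 and 30.4 TPM in shNT 1 and 2, and 24.4, 21.9, 24.7 and 27.7 TPM in shLAMP5 1 to 4. Every shLAMP5 library lay below both controls. The log2 fold change was -0.48 (interval -0.95 to -0.02, SE 0.20), with a limma unadjusted p of 0.043 and an adjusted p of 0.541. Without shNT 1 it was -0.29 (limma unadjusted p 0.348, adjusted p 0.957), and without shNT 2 -0.67. SHARPIN measured 64.9 and 67.5 TPM in shNT, and 69.5, 108, 72.9 and 76.7 TPM in shLAMP5, each above both controls, with a log2 fold change of 0.28 (SE 0.23, limma adjusted p 0.740). RBCK1 and RNF31 had log2 fold changes of 0.23 and -0.07, and neither group pair was apart.

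TNFAIP2, a gene induced by tumour necrosis factor in myeloid and endothelial cells, had the smallest p of the members. In the figures by role it stands with the ubiquitin regulators only because it was listed there. It measured 37.5 and 25.9 TPM in shNT 1 and 2, and 53.2, 45.5, 86.6 and 42.2 TPM in shLAMP5 1 to 4. All 4 lay above both controls, and shLAMP5 3 was the highest. The log2 fold change was 0.79 (interval 0.05 to 1.52, SE 0.32), with a limma unadjusted p of 0.0384 and an adjusted p of 0.541. Without shNT 2 it was 0.53 (limma unadjusted p 0.250, adjusted p 1.00). Among myeloid markers, CSF1R, the receptor of macrophage colony-stimulating factor, was also highest in shLAMP5 3, with 20.8 and 8.33 TPM in shNT and 21.3, 24.9, 79.7 and 21.1 TPM in shLAMP5. Of the 12 myeloid markers 6 were highest in shLAMP5 3, 2 each in shLAMP5 1 and 4, and 1 in each control, and 11 reached 1 TPM in 2 libraries. Their summed level ran from 2551 to 6642 TPM in shNT and from 1926 to 10367 TPM in shLAMP5, most of it from LYZ. Without LYZ it was 567 and 581 TPM in shNT, and 637, 530, 980 and 759 TPM in shLAMP5 1 to 4. Their part in the TNFAIP2 difference was not tested.

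TNFAIP3, the feedback enzyme A20, measured 34.6 and 20.3 TPM in shNT 1 and 2, and 20.9, 32.2, 20.4 and 28.2 TPM in shLAMP5 1 to 4. All 4 shLAMP5 values lay between the controls, and the log2 fold change was -0.09 (interval -0.75 to 0.58, SE 0.29, limma adjusted p 0.954). Its binding partners TNIP1 and TNIP2 had 0.13 and 0.18. TNIP2 was narrow, with 23.0 and 21.3 TPM in shNT and 24.5, 24.8, 27.0 and 24.4 TPM in shLAMP5, above both controls in each (SE 0.17, limma adjusted p 0.793). CYLD, a further deubiquitinase and tumour suppressor, ran from 1.74 TPM in shLAMP5 2 to 8.16 TPM in shLAMP5 3, with a log2 fold change of 0.46 (SE 0.43), or 0.77 without shLAMP5 2. Of the antagonists of NIK, BIRC2 averaged 16.2 TPM with a log2 fold change of 0.17, and BIRC3, a known NF-kB target, did not exceed 0.436 TPM.

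In the TBK1-IRF branch, which leads from nucleic acid and TLR sensors to interferon genes, all 4 tested members had positive values, with a median of 0.21, and none passed. TBK1, its kinase, measured 13.5 and 15.3 TPM in shNT 1 and 2, and 19.8, 12.3, 21.4 and 16.0 TPM in shLAMP5 1 to 4. Only shLAMP5 2 failed to exceed both controls, and the log2 fold change was 0.22 (interval -0.36 to 0.80, SE 0.25, limma adjusted p 0.821). IRF5, a factor of TLR responses in myeloid cells, measured 32.3 and 35.8 TPM in shNT, and 40.4, 29.4, 49.5 and 39.9 TPM in shLAMP5. Again shLAMP5 2 alone lay low, with a log2 fold change of 0.20 (SE 0.23, limma adjusted p 0.833). IRF3, the factor that TBK1 activates, measured 11.5 and 26.2 TPM in shNT, and 24.7, 24.2, 15.1 and 27.2 TPM in shLAMP5. It was lowest in shNT 1 and next lowest in shLAMP5 3, and its log2 fold change was 0.34 (SE 0.36), or 0.90 without shNT 2 and -0.22 without shNT 1. TANK, a scaffold for TBK1, had 0.06.

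Members with a kB match in a promoter window spread somewhat more within groups than those without. Over the 13 tested members with a match the median SD was 0.33 on the log2(TPM + 1) scale (0.19 to 1.29), over the 23 with a window and no match it was 0.23 (0.068 to 0.60), and over all genes tested it was 0.29. The log2 fold changes had medians of 0.089 and -0.048, with 9 positive in each. The ranges overlap widely, the 6 members without a window are left out, and no test of this difference was made. BCL3, CYLD and NFKB2 had the widest spread of those with a match, while NFKBIB, with a joined match 28 bases before its start, had the narrowest.

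**Figure D5:**
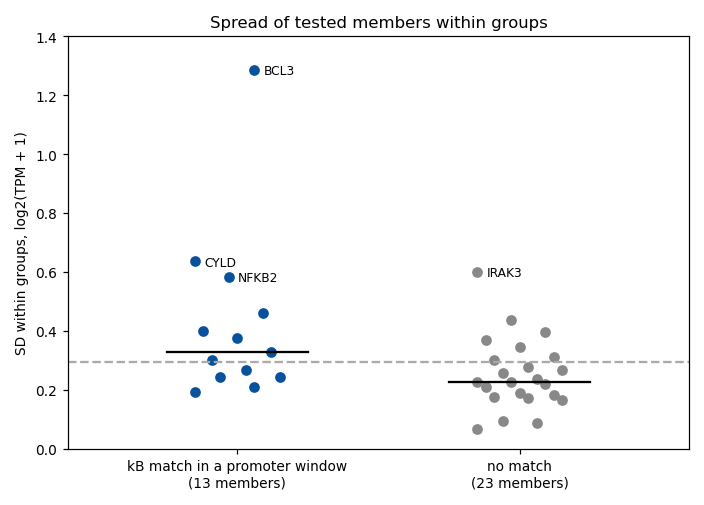
SD within groups on the log2(TPM + 1) scale of the tested members that have a promoter window, split by whether a window holds a kB consensus match. Horizontal bars are medians (0.33 and 0.23) and the dashed line is the median over all genes tested (0.29).

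Genes around the members were read from lists of receptors, other components, targets and interferon-stimulated genes. These lists were chosen with earlier results of these data known. Their counts beside the shares of all genes are descriptions only, here and in the next paragraph. None of the tested genes of these 4 lists passed the test. Receptors and proximal adaptors had a positive log2 fold change for 21 of 23 tested genes (median 0.44), against 49.3% positive over all genes, and 4 were higher at an unadjusted p under 0.05 (3.72% of all genes). TLR4, the endotoxin receptor, measured 1.95 and 2.37 TPM in shNT 1 and 2, and 6.06, 3.59, 9.50 and 7.41 TPM in shLAMP5 1 to 4, all above both controls (log2 fold change 1.21, SE 0.33, limma adjusted p 0.491). Its co-receptor LY96 had 0.93 (SE 0.25), with 0.786 and 0.669 TPM in shNT and 1.53 to 2.81 TPM in shLAMP5. LY96, TLR8 and TNFRSF13C were under 1 TPM in both shNT libraries. They passed the filter through shLAMP5 libraries alone, which favours a positive value. These genes are among the 21 positive ones, and LY96 and TLR8 are also among the 4 receptors counted above. TIRAP and NOD1, the 2 negative ones, had -0.17 and -0.09. Other cascade components had a median of 0.10, with 20 of 30 positive. MAP3K8, a kinase held by p105, had 0.61 and XIAP 0.32, while SPATA2, which links CYLD to LUBAC, had -0.60 and the repressor NKRF -0.53. The adjusted p-values of these 4 by limma lay between 0.554 and 0.684.

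NF-kB target genes outside the members had a positive log2 fold change for 21 of 25 tested genes, with a median of 0.33. Of these, 2 were higher at a limma unadjusted p under 0.05. Over all genes tested, 49.3% were positive and 3.72% higher at that threshold, shares that also apply to the interferon list below. CCL20 was under 1 TPM in both shNT libraries and passed the filter through shLAMP5 libraries alone. BCL2A1, an anti-apoptotic target, measured 11.8 and 2.86 TPM in shNT 1 and 2, and 22.6, 23.3, 35.9 and 19.6 TPM in shLAMP5 1 to 4. All 4 lay above both controls, which themselves differed 4.13-fold (log2 fold change 1.87, SE 0.46, limma adjusted p 0.491). NINJ1 had 0.71 (SE 0.24), and TNF and SOD2 had -0.56 and -0.34. Of IRF and interferon-stimulated genes 23 of 24 were positive, with a median of 0.39 and 4 higher at that threshold. IFI6 measured 20.5 and 10.8 TPM in shNT, and 86.2, 50.7, 57.0 and 96.3 TPM in shLAMP5 (log2 fold change 2.16, SE 0.35, limma adjusted p 0.252), IFI35 had 0.77, and IRF8 was the 1 negative gene, at -0.46. The control libraries differed in these lists too, by the gaps given above. Their gap exceeded the absolute log2 fold change for 68.0% of the target genes tested and 70.8% of the interferon list. Over all genes tested the share was 49.7%.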

How the data were processed

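RNA of 6 MOLM-13 libraries was sequenced on a HiSeq instrument from TruSeq libraries of total RNA, per the labels' protocols. The authors deposited 1 table of gene-level values, read here as TPM because they are fractional and sum to 897026 to 912565 per library; it carries no unit of its own. Kallisto and hg19 are named, per the submitters' processing notes, and no source used here gives the version, transcript set or filters. Depth cannot be read from TPM, so no counting interval was made, and a count model was not run. Of the rows, 35677 were matched to a symbol by identifier, with GENCODE release 29 filling gaps.

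Groups came from the titles. Values were tested as log2(TPM + 1) in limma 3.58.1 under R 4.3.3, with the trend option and group as the sole factor. Genes entered when 2 or more libraries reached 1 TPM (13072 genes), and p-values were adjusted by Benjamini-Hochberg, with a threshold of 0.05. The code was tested on simulated data. Tables used Python 3.11.15 and pandas 2.3.3. The members and lists were chosen with earlier results of these data known. Full values are given for 8 preset members, the 2 of each role with the smallest p, and members whose groups do not overlap and differ by at least 0.5 (log2). Of the other lists, the 2 with the smallest p in each direction are named. BCL3, TRAF1, CHUK, SHARPIN, TNIP2, IRAK3, CYLD and the level ratios were singled out after their values were seen. Alternatives were pseudocounts of 0.1 and 5, no filter, a minimum of 10 TPM, median scaling, quantile normalization, library weights, the replicate number as a block, and leaving out each library.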

Additional observations from a re-analysis of the deposited data

Results flagged for a closer look

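In 6 cases among the 61 genes examined, 1 of the 4 shLAMP5 libraries lay apart from the other 3, with a gap to its nearest neighbour above Dixon's critical share of the whole range on the log2(TPM + 1) scale. Chance gives about 1 such case in 20 groups. In 4 of them shLAMP5 2 was the low library: REL at 1.83 TPM against 2.58 to 2.67 in the others (gap 0.906 of the range), TAB1 at 10.6 against 17.9 to 19.8 (0.840), TAB2 at 22.0 against 36.2 to 39.1 (0.864) and TAB3 at 2.51 against 3.87 to 4.10 (0.877). That library was the lowest of all 6 for 44.1% of the genes tested and for 18 of the 42 tested members. In the other two shLAMP5 3 was the high library: TNIP2 at 27.0 TPM against 24.4 to 24.8 (0.863) and NINJ1 at 91.5 against 56.7 to 59.2 (0.911).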

How the results depend on the processing

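The count of members called was 0 in the fit and all 14 alternatives, and the lowest adjusted p of a member was 0.162 (NFKBIB with library weights). The count over all genes was 0 but became 14 with no filter, 210 with library weights and 16 with the replicate number as a block. The median of the members stayed within -0.049 (with the block) and 0.13, and LAMP5, between -1.90 and -1.17, passed with library weights (-1.40, adjusted p 0.0302). Of the 42 tested members, 21 kept 1 sign throughout. Under the replicate block the sign of 7 tested members turned, among them NFKB1 (-0.089) and IKBKB (-0.064), and no member reached an unadjusted p under 0.05. Same-numbered libraries deviated from their group means in opposite directions (correlations across genes -0.52 and -0.47), so the titles' numbers are not read as pairs. With only 2 controls, the deviation of each mirrors that of the other. Thus shNT 1 deviated together with shLAMP5 2, and shNT 2 with shLAMP5 1. With library weights 8 turned, among them IRAK3 (0.35), NFKB1 (-0.018) and RELA (0.034), as did NOD1 (0.021) outside the members. Leaving out 1 library turned 1 to 9 members, most without shNT 2, among them BCL3 (-0.18 to 1.89), NFKB1 (-0.29 to 0.30), NFKB2 (-0.19 to 0.93), RELA (-0.11 to 0.084), IKBKB (-0.048 to 0.17), TNFAIP3 (-0.45 to 0.28) and IRF3 (-0.22 to 0.90). Without 1 library the count of members at an unadjusted p under 0.05 ran from 0 to 5. Causes were not tested. Unknown depth leaves the counting error of low genes such as IRAK2, REL and MAP3K14 unmeasured.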
